A study of Mus musculus with 12 samples.

Results

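Transcripts of the Toll-like receptor family were followed in murine bone marrow–derived macrophages (BMDMs), which are macrophages grown in culture from marrow with the growth factor CSF1, across 3 substrates and with or without interleukin-4 (IL-4). The 10 members are Tlr1, Tlr2, Tlr4, Tlr6 and Cd180, whose proteins act at the cell surface, and Tlr3, Tlr7, Tlr8, Tlr9 and Tlr13, whose proteins act in endosomes. They were taken by gene symbol from a table of 34327 genes, and all 10 were found and passed the filter for testing. The BMDMs came from mice labelled C57BL/6 (C57BL/6J in the protocol). They were kept for 24 hours, according to the sample labels, on tissue culture (TC) plates, in low-collagen gels (2 mg/ml) or in high-collagen gels (7 mg/ml), and on each substrate they were left untreated or given IL-4 (20 ng/ml). Each of the 6 conditions had 2 libraries, so 12 libraries were compared.

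The substrates limit what a comparison can say. In the gels the cells were embedded in rat tail type I collagen that floated free of the well, so gel and plate differ in dimension, in ligand, in stiffness and in handling, and these cannot be told apart. Collagen density likewise changes stiffness and pore size together. The labels do not say whether the 2 libraries of a condition came from separate mice or cultures, and the p-values then measure only the spread between libraries, which may be technical. All values are TPM, transcript abundances corrected for transcript length and scaled to a fixed total per library, which keep no sequencing depth.

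Toll-like receptors are membrane proteins with a leucine-rich ectodomain that binds microbial molecules and a cytoplasmic domain that recruits the adaptors MYD88 or TICAM1, which lead to NF-κB and interferon regulatory factors. TLR2 pairs with TLR1 or TLR6 to sense bacterial lipopeptides, and TLR4 senses lipopolysaccharide together with its partner LY96 and with CD14. CD180 resembles TLR4 but lacks the signaling domain, binds LY86 in place of LY96 and is known to temper TLR4 in macrophages. The endosomal receptors sense nucleic acids. TLR3 senses double-stranded RNA, and TLR7 and human TLR8 sense single-stranded RNA and its breakdown products. TLR9 senses unmethylated CpG DNA and TLR13 bacterial ribosomal RNA. The endosomal receptors reach endosomes with the escort protein UNC93B1 and are trimmed there by proteases.

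The genes lie apart in the mouse genome (GRCm38) except for 2 pairs. Tlr8 (chrX:167242696-167264329) and Tlr7 (chrX:167304929-167330558) follow each other on the minus strand with 40599 bases between them, and Tlr1 (chr5:64924679-64933563) and Tlr6 (chr5:64952031-64960097) do so with 18467 bases between them. Tlr2 lies at chr3:83836272-83841767, Tlr3 at chr8:45395665-45411080, Tlr4 at chr4:66827584-66930284, Tlr9 at chr9:106222598-106226883, Tlr13 at chrX:106143204-106160493 and Cd180 at chr13:102693558-102739629. Reads of some of these genes cannot be assigned with certainty. Tlr1 shares 18.3% of the 31-base words of its transcripts with Tlr6, and Tlr6 shares 16.4% of its words with Tlr1. Exons of Tlr3 overlap an antisense gene, Gm45542, which covers 6.10% of its words, and exons of Cd180 overlap Mast4 on the opposite strand, which covers 3.46%. The options stated for the quantification name no strand setting, so reads of overlapping genes on opposite strands may not have been told apart, and the values of Tlr1, Tlr6, Tlr3 and Cd180 are less certain than those of Tlr2, Tlr7, Tlr8, Tlr9 and Tlr13, which share no such word with another gene.

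Promoter sequences are shown for 3 members, chosen because the results below turn on them: Tlr2 for its fall with IL-4, Tlr8 for its rise with IL-4 on plates, and Tlr9 for its gap between gels and plates. Each line gives the 250 bases before the start that RefSeq (GRCm38.p6) gives the gene, 5′ to 3′ on the strand of the gene. For Tlr2 that start lies inside the gene as located above from another annotation, so part of its window does too. Capitals mark matches to 4 motifs searched on both strands: the spacing of a site for STAT6, the transcription factor of the IL-4 receptor (TTC and GAA with any 4 bases between them), the PU box of the macrophage factor SPI1 (GAGGAA), an interferon-stimulated response element (GAAA and GAAA with any 2 bases between them) and a form of the κB site (GGG and TTCC with any 3 bases between them).
Tlr2 promoter, chr3:83841609-83841858, minus strand: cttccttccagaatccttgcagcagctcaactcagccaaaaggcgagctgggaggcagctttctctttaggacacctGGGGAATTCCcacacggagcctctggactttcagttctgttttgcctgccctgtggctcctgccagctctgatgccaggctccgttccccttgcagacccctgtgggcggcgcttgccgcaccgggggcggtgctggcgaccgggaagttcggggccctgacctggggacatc
Tlr8 promoter, chrX:167264330-167264579, minus strand: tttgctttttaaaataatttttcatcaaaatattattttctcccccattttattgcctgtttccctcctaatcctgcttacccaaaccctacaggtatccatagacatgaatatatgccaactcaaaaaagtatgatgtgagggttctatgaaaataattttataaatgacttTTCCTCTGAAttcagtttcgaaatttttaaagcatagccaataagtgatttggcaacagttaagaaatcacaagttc
Tlr9 promoter, chr9:106222348-106222597, plus strand: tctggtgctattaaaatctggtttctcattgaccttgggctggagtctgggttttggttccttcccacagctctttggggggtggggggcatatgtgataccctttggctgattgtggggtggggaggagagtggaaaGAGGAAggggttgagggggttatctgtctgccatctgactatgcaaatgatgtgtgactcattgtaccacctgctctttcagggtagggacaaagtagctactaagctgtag

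The capitals are a κB match in Tlr2, a STAT6 match that overlaps a PU box in Tlr8 and a PU box in Tlr9, which had another just after its start. Of 32851 promoters of 300 bases in the same set, 5.56% held a κB match, 6.95% a STAT6 match, 28.3% a PU box and 3.44% an interferon-stimulated response element. RefSeq gave 11 promoters for 8 of the members. Tlr4 and Tlr7 were not matched. The STAT6 letters were found in the promoter of Tlr8 and in none of the other 10 promoters. A match of letters is a description of the sequence and not a measured site, and its absence says only that the letters are not in this window.

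The cells matched their label. All 8 macrophage markers, among them Adgre1, Csf1r and Lyz2, were above a mean of 1 TPM. No gene of the fibroblast, dendritic cell, T and NK cell, mast cell or eosinophil lists reached that mean. Markers of other cells that carry TLR7 and TLR9 were read as well. Of 6 B cell markers only Cd79b reached a mean of 1 TPM, with a summed level of 1.11 to 2.01 TPM on plates and 4.49 to 6.84 TPM in gels. Of 6 plasmacytoid dendritic cell markers, Tcf4 and Cox6a2 reached it, Ly6d was at 0 and the sum ranged from 33.2 to 69.5 TPM. Of 7 neutrophil markers, S100a8 and S100a9 reached it and Ly6g was at 0, with a sum of 4.38 to 9.43 TPM on plates and 13.4 to 31.4 TPM in gels. The B cell and neutrophil sums were therefore higher in gels, as Tlr9 was. So was the sum of the 8 macrophage markers, at 17612 to 27937 TPM on plates and 30776 to 53602 TPM in gels. The part of any of these cells in the Tlr9 result was not tested. In bulk RNA, fewer cells of a type and less RNA per cell cannot be told apart. Replicate libraries correlated with r from 0.980 to 0.985 and held 11543 to 11910 genes at 1 TPM or more.

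Untreated macrophages on plates carried mostly Cd180 and Tlr13. Cd180 was at 217 and 225 TPM and Tlr13 at 167 and 165 TPM, followed by Tlr7 at 76.3 and 88.3 TPM. Tlr4 (60.5 and 57.5 TPM) and Tlr2 (54.5 and 58.6 TPM) overlapped and could not be ordered. Tlr8 was at 49.5 and 47.5 TPM, and Tlr1, Tlr3 and Tlr6 were between 13.3 and 23.6 TPM. Tlr9 came last at 4.95 and 6.21 TPM. In untreated gels Tlr7 came first, at 120 and 134 TPM in low-collagen and 133 and 110 TPM in high-collagen gels. Tlr8 followed at 104 and 103 TPM in high-collagen gels, while in low-collagen gels its 92.2 and 104 TPM overlapped Cd180 at 75.9 and 94.6 TPM. Of the family members outside the 10, Tlr5, the flagellin receptor, ranged from 0.529 to 5.93 TPM, Tlr11 did not exceed 0.217 TPM and Tlr12 did not exceed 0.0902 TPM in any library.

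**Figure D1:**
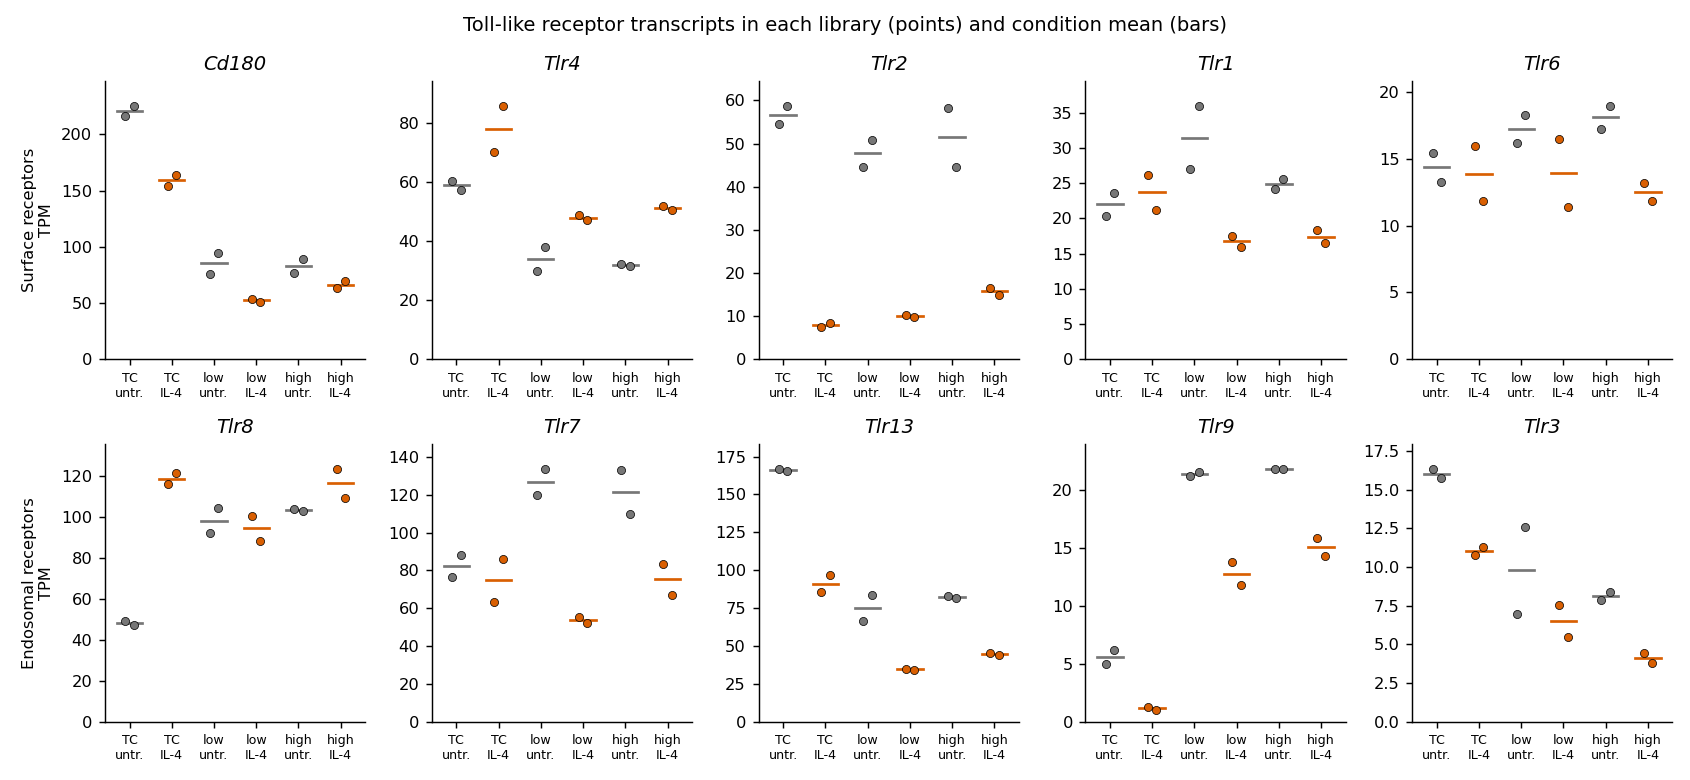
TPM of the 10 receptor genes in every library, with the 2 libraries of a condition as points and their mean as a bar, surface receptors above and endosomal receptors below, gray for untreated (untr.) and orange for IL-4 on TC plates, low-collagen and high-collagen gels. Tlr2 is at 7.55 to 16.6 TPM in all 6 IL-4 libraries and at 44.5 to 58.6 TPM in all 6 untreated ones, Tlr9 is above 11 TPM in every gel library and below 7 TPM in every plate library, and Cd180 and Tlr13 are highest on untreated plates.

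The first question was how IL-4 changes the receptors on each substrate. Tlr2 fell most on all 3, between 3.27-fold and 7.09-fold, while Tlr4 was the member that rose on all 3. Most members fell in gels: of the 10, 1 was higher and 7 were lower in low-collagen gels, 1 was higher and 8 were lower in high-collagen gels, and 2 were higher and 5 were lower on plates (limma, adjusted p under 0.2). IL-4 also changed much of the transcriptome. The share of all tested genes called was 53.6% in low-collagen gels (40.4% lower), 34.3% in high-collagen gels (22.8% lower) and 38.8% on plates (24% lower). The median log2 fold change over the members was −0.69, −0.50 and −0.31, beside −0.19, −0.10 and −0.06 over all genes tested. After median-ratio rescaling of the libraries the numbers higher and lower were 1 and 6, 2 and 7, and 2 and 5. Over all genes the rescaled numbers were 2791 and 2497 of 11852 in low-collagen gels and 1989 and 1766 in high-collagen gels. On plates they were 2236 and 2403 of 11865.

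Among the surface receptors, Tlr2 was at 54.5 and 58.6 TPM on untreated plates and at 7.55 and 8.41 TPM with IL-4. In low-collagen gels it was at 44.7 and 50.8 TPM against 10.1 and 9.76 TPM, and in high-collagen gels at 58.3 and 44.5 TPM against 16.6 and 14.9 TPM. No IL-4 library reached the lowest untreated library. The log2 fold change was −2.68 ± 0.13 on plates (SE, n = 2 per group, adjusted p = 5.4e-07). It was −2.15 ± 0.14 in low-collagen gels (adjusted p = 3.1e-05) and −1.64 ± 0.14 in high-collagen gels (adjusted p = 0.000204). Groups without overlap were common with IL-4. In either direction they were seen for 62.7% of all genes on plates, 68.4% in low-collagen gels and 61.3% in high-collagen gels. Of the 10 members, 7, 7 and 10 separated in the same order.

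Tlr4, the lipopolysaccharide receptor, moved the other way. It was at 60.5 and 57.5 TPM on untreated plates and at 70.2 and 85.7 TPM with IL-4, at 29.9 and 37.8 TPM against 48.9 and 47.1 TPM in low-collagen gels, and at 32.1 and 31.7 TPM against 52.0 and 50.4 TPM in high-collagen gels. The IL-4 libraries lay above the untreated ones on each substrate. The log2 fold change was 0.39 ± 0.12 on plates (adjusted p = 0.0383), 0.50 ± 0.11 in low-collagen gels (adjusted p = 0.0127) and 0.67 ± 0.11 in high-collagen gels (adjusted p = 0.00575). The call on plates was lost without replicate 2 of the TC IL-4 libraries (log2 0.25, adjusted p = 0.243). The ratio of Tlr4 to Tlr2 transcripts was 0.551 to 1.11 in the 6 untreated libraries and 3.14 to 10.2 in the 6 IL-4 libraries.

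Cd180 fell with IL-4 on plates, from 217 and 225 TPM to 154 and 164 TPM (log2 −0.47 ± 0.11, adjusted p = 0.0111), and in low-collagen gels, from 75.9 and 94.6 TPM to 53.7 and 51.1 TPM (log2 −0.68 ± 0.12, adjusted p = 0.00481). In high-collagen gels it went from 76.7 and 88.8 TPM to 62.9 and 69.4 TPM (log2 −0.32 ± 0.12, adjusted p = 0.124), a call that was lost after median-ratio rescaling (adjusted p = 0.223) and without high-collagen untreated replicate 2 (adjusted p = 0.415) or high-collagen IL-4 replicate 1 (adjusted p = 0.404). Of the coreceptors of TLR2, Tlr1 was called in both gels. It went from 27.0 and 35.9 TPM to 17.6 and 16.0 TPM in low-collagen gels (log2 −0.86 ± 0.14, adjusted p = 0.00339) and from 24.1 and 25.6 TPM to 18.3 and 16.5 TPM in high-collagen gels (log2 −0.49 ± 0.14, adjusted p = 0.0538, and 0.205 without high-collagen IL-4 replicate 2). On plates its libraries overlapped, at 20.4 and 23.6 TPM against 26.2 and 21.2 TPM. Tlr6 was between 11.4 and 18.96 TPM in all 12 libraries and was called in high-collagen gels alone (log2 −0.50 ± 0.17, adjusted p = 0.0875), where the call was lost without high-collagen untreated replicate 2 or high-collagen IL-4 replicate 2 (adjusted p = 0.277 for both). In low-collagen gels it missed the threshold with all libraries (adjusted p = 0.203) and passed it without low-collagen IL-4 replicate 1 (log2 −0.55, adjusted p = 0.0416).

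Among the endosomal receptors, Tlr13 fell on every substrate. It went from 167 and 165 TPM to 85.6 and 96.8 TPM on plates, from 66.6 and 83.5 TPM to 35.1 and 34.3 TPM in low-collagen gels, and from 83.3 and 81.4 TPM to 45.1 and 43.8 TPM in high-collagen gels. The groups did not overlap, and the log2 fold changes of −0.86 ± 0.10, −1.08 ± 0.11 and −0.88 ± 0.11 had adjusted p-values of 0.000179, 0.000278 and 0.00123. Tlr9 fell from 4.95 and 6.21 TPM to 1.27 and 1.02 TPM on plates, 4.88-fold in TPM, and its log2 fold change of −1.61 ± 0.13 (adjusted p = 1.7e-05) understates this because 1 TPM was added before taking logs. In gels Tlr9 fell less, from 21.2 and 21.5 TPM to 13.8 and 11.8 TPM at low density (log2 −0.70 ± 0.11, adjusted p = 0.00258) and from 21.8 and 21.8 TPM to 15.9 and 14.3 TPM at high density (log2 −0.51 ± 0.11, adjusted p = 0.018).

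Tlr7 and Tlr8, neighbors on the X chromosome, responded to IL-4 in different ways. Tlr8 rose on plates from 49.5 and 47.5 TPM to 117 and 121 TPM (log2 1.28 ± 0.09, adjusted p = 5.4e-06), the largest rise of any member on any substrate. In gels Tlr8 was not called without rescaling, at 92.2 and 104 TPM against 101 and 88.7 TPM at low density (log2 −0.05, 95% interval −0.28 to 0.17) and at 104 and 103 TPM against 124 and 110 TPM at high density (log2 0.17, 95% interval −0.06 to 0.40). After median-ratio rescaling the high-collagen value passed the threshold as a rise (log2 0.27, adjusted p = 0.0805), and the low-collagen value was 0.15 and not called. Tlr7 fell in low-collagen gels from 120 and 134 TPM to 55.5 and 52.1 TPM (log2 −1.22 ± 0.13, adjusted p = 0.000421) and in high-collagen gels from 133 and 110 TPM to 83.5 and 66.9 TPM (log2 −0.69 ± 0.13, adjusted p = 0.0101). On plates Tlr7 overlapped, at 76.3 and 88.3 TPM against 63.5 and 85.9 TPM, and was called without TC IL-4 replicate 2 (log2 −0.37, adjusted p = 0.176). The ratio of Tlr8 to Tlr7 transcripts was 0.538 to 0.936 in untreated libraries and 1.41 to 1.84 in IL-4 libraries on all 3 substrates.

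Tlr3 gave the least certain response. It was at 16.3 and 15.7 TPM against 10.8 and 11.3 TPM with IL-4 on plates, at 6.96 and 12.6 TPM against 7.56 and 5.46 TPM in low-collagen gels, and at 7.85 and 8.37 TPM against 4.42 and 3.80 TPM in high-collagen gels. The low-collagen libraries overlapped. The calls (log2 −0.50, −0.48 and −0.84, adjusted p = 0.155, 0.188 and 0.0674) were lost when any one of the plate libraries was left out on plates (adjusted p from 0.281 to 0.351), when low-collagen untreated replicate 2 was left out at low density (adjusted p = 0.785), and without high-collagen untreated replicate 2 (adjusted p = 0.209) or high-collagen IL-4 replicate 2 (adjusted p = 0.223) at high density. At low density the call also ended without low-collagen IL-4 replicate 2 (adjusted p = 0.583) or without any one of the 4 high-collagen libraries, which left the estimate as it was, and after rescaling (log2 −0.30, adjusted p = 0.392).

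**Figure D2:**
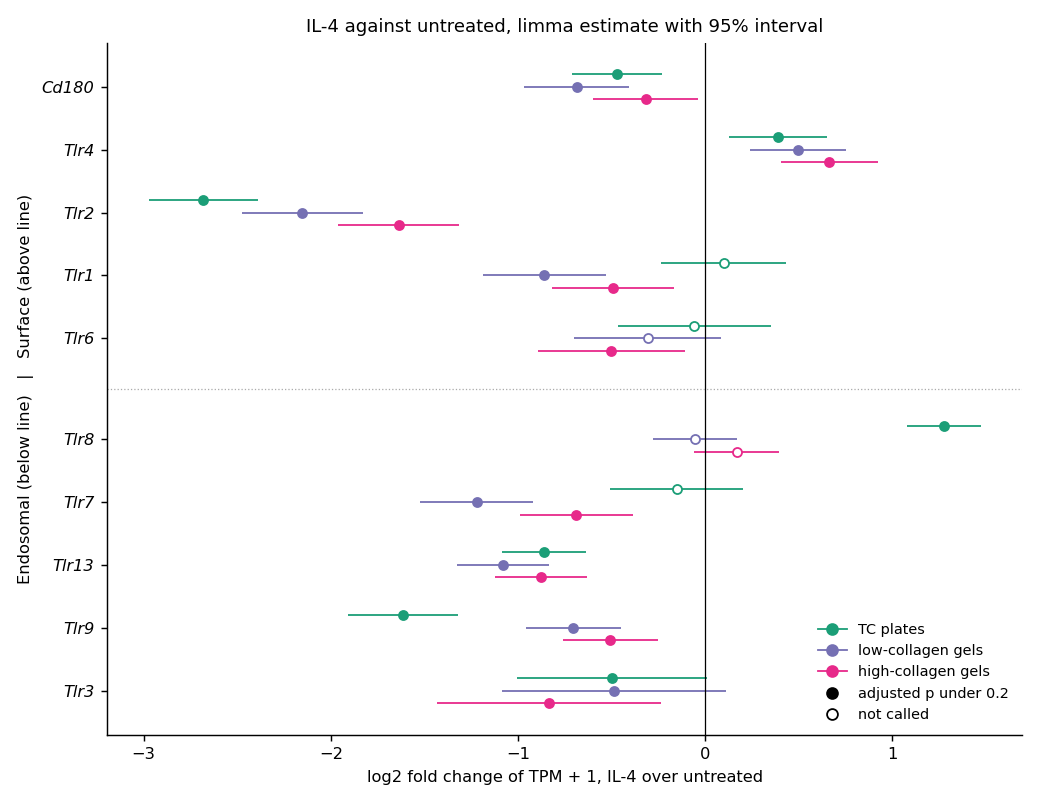
log2 fold change of TPM + 1 for IL-4 over untreated, with the limma 95% interval, on TC plates (green), in low-collagen gels (purple) and in high-collagen gels (pink), filled points marking an adjusted p under 0.2. Tlr2 lies at −1.64 or below on all 3 substrates and Tlr4 above 0, while Tlr8 stands at 1.28 on plates and near 0 in gels.

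The second question was whether the density of collagen changes the receptors. In untreated cells none of the 10 members was called between high- and low-collagen gels, and the share of all genes called was 8.02%. At an unadjusted limma p under 0.05 the count of members was also 0. Tlr1 had the largest difference (log2 −0.32, adjusted p = 0.335) and was called as lower in high-collagen gels when low-collagen untreated replicate 1 was left out (log2 −0.52, adjusted p = 0.165). With IL-4, 5 members were higher in high-collagen gels and none was lower, against 21.1% of all genes called. The median over the members was 0.26, beside 0.06 over all genes.

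The member with the largest difference was again Tlr2, at 10.1 and 9.76 TPM in low-collagen and 16.6 and 14.9 TPM in high-collagen gels with IL-4 (log2 0.61 ± 0.14, adjusted p = 0.052). Tlr7 was at 55.5 and 52.1 TPM against 83.5 and 66.9 TPM (log2 0.47 ± 0.13, adjusted p = 0.0865). Tlr13 was at 35.1 and 34.3 TPM against 45.1 and 43.8 TPM (log2 0.35, adjusted p = 0.109). For these 3 genes, and for Tlr8 (101 and 88.7 TPM against 124 and 110 TPM, log2 0.30, adjusted p = 0.124) and Cd180 (53.7 and 51.1 TPM against 62.9 and 69.4 TPM, log2 0.33, adjusted p = 0.161), every high-collagen library was above every low-collagen library. Such a separation in either direction was seen for 8 of the 10 members and for 55.5% of all genes tested. These calls depend on single libraries. Without low-collagen IL-4 replicate 2 none of the members was called (adjusted p = 0.22 for Tlr2), without high-collagen IL-4 replicate 1 only Tlr2 was, without high-collagen IL-4 replicate 2 Tlr2 and Tlr7 were, and without low-collagen IL-4 replicate 1 Tlr2, Tlr7 and Tlr8 were. Tlr3 went the other way, at 7.56 and 5.46 TPM against 4.42 and 3.80 TPM, and was not called (log2 −0.54, adjusted p = 0.262). It was called as lower after median-ratio rescaling (adjusted p = 0.173), when the plate libraries joined the fit (adjusted p = 0.177), and without low-collagen untreated replicate 1 (adjusted p = 0.134) or replicate 2 (adjusted p = 0.133).

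The difference of the IL-4 response between the densities was tested directly as an interaction. No member passed (0.363% of all genes did). At an unadjusted limma p under 0.05 there were 2, Tlr7 (log2 0.53, adjusted p = 0.443) and Tlr2 (log2 0.52, adjusted p = 0.481), in both of which the fall with IL-4 was smaller at high density. A difference in response between low- and high-collagen gels was therefore not shown for any member.

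The third comparison set the gels against plates, where gene expression differed most widely, with 72.8% of all genes called for low-collagen gels and 73.5% for high-collagen gels in untreated cells and 75.1% and 74.6% with IL-4. Against that background, 9 and 8 of the 10 members were called in untreated cells and 9 and 7 with IL-4. The median of all genes was shifted by −0.13 to −0.28 in these comparisons, so small differences depend on the scaling. In untreated cells 4 members were higher and 5 lower in low-collagen gels (5 and 4 after rescaling) and 4 and 4 in high-collagen gels (5 and 4), and with IL-4 2 and 7 (3 and 4) and 2 and 5 (4 and 4). Over all 11865 genes the rescaled numbers in untreated cells were 4397 and 4270 at low density and 4392 and 4352 at high density. With IL-4 they were 4316 and 4238 at low density and 4464 and 4314 at high density. The members split. Cd180, Tlr13, Tlr4 and Tlr3 were lower in gels in all 4 comparisons, Tlr9 was higher in all 4, and Tlr7, Tlr8, Tlr1 and Tlr2 depended on IL-4.

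Tlr9 differed most. Untreated cells had 4.95 and 6.21 TPM on plates, 21.2 and 21.5 TPM in low-collagen gels and 21.8 and 21.8 TPM in high-collagen gels, which is 3.83-fold and 3.90-fold higher. With IL-4 the plates had 1.27 and 1.02 TPM, low-collagen gels 13.8 and 11.8 TPM and high-collagen gels 15.9 and 14.3 TPM, which is 11.2-fold and 13.2-fold higher. Every gel library was above every plate library, while 78.8% to 80.9% of all genes separated, in either direction, in the single comparisons with plates. The log2 fold changes were 1.77 ± 0.13 and 1.80 ± 0.13 in untreated cells (adjusted p = 2.5e-06 and 2.1e-06) and 2.68 ± 0.13 and 2.91 ± 0.13 with IL-4 (adjusted p = 3.1e-07 and 1.4e-07).

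Cd180 was 2.59-fold and 2.67-fold lower in untreated low- and high-collagen gels than on plates and 3.04-fold and 2.41-fold lower with IL-4, and Tlr13 was 2.21-fold, 2.02-fold, 2.63-fold and 2.05-fold lower in the same order. The adjusted p-values of these 8 values did not exceed 1.54e-05. Tlr4 was between 1.52-fold and 1.85-fold lower in gels and Tlr3 between 1.64-fold and 2.69-fold lower. These 4 genes kept their direction and their calls under median-ratio rescaling and quantile normalization.

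Tlr8 was 2.03-fold higher in untreated low-collagen gels and 2.13-fold higher in untreated high-collagen gels than on plates (log2 1.00 and 1.08 ± 0.09, adjusted p = 7.3e-06 and 4.1e-06). With IL-4 Tlr8 was not called in high-collagen gels (117 and 121 TPM against 124 and 110 TPM) and was lower in low-collagen gels (101 and 88.7 TPM, log2 −0.33, adjusted p = 0.00835), where it was not called after rescaling. In high-collagen gels Tlr8 was called as higher after rescaling (log2 0.21) and after quantile normalization (log2 0.17). Tlr7 behaved in a similar way, 1.54-fold and 1.48-fold higher in untreated low- and high-collagen gels (adjusted p = 0.00713 and 0.0122) and 1.39-fold lower in low-collagen gels with IL-4 (log2 −0.45, adjusted p = 0.0319), a call that was lost after rescaling and without TC IL-4 replicate 2 (log2 −0.23, adjusted p = 0.252). With IL-4 Tlr7 was level with plates in high-collagen gels (log2 0.02) and was called as higher there after rescaling (log2 0.26, adjusted p = 0.179). The summed plasmacytoid dendritic cell markers followed a like course, at 33.2 to 36.3 TPM on plates, 57.1 to 69.5 TPM in untreated gels and 36.0 to 39.2 TPM in gels with IL-4. Most of that sum was the single gene Tcf4, with a mean of 38.5 TPM over the 12 libraries. Of the 6 markers only Tcf4 and Cox6a2 reached a mean of 1 TPM, so the course is not that of the list. The part of such cells in the result was not tested.

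Tlr2 was close to its plate level in untreated gels. It was called as lower in low-collagen gels (log2 −0.24, adjusted p = 0.137), but not after rescaling, without TC untreated replicate 2 (adjusted p = 0.379) or without low-collagen untreated replicate 1 (adjusted p = 0.462), and in high-collagen gels it was called only without high-collagen untreated replicate 1 (log2 −0.34, adjusted p = 0.0499). With IL-4 it was 1.97-fold higher in high-collagen gels than on plates (log2 0.90 ± 0.13, adjusted p = 0.000205) and 1.25-fold higher in low-collagen gels (log2 0.29 ± 0.13, adjusted p = 0.0789). The second call ended without TC IL-4 replicate 1 (adjusted p = 0.281) or low-collagen IL-4 replicate 1 (adjusted p = 0.211). Tlr1 was higher in untreated low-collagen gels (log2 0.49, adjusted p = 0.0167) and lower with IL-4 in both gels (log2 −0.47 and −0.42, adjusted p = 0.0196 and 0.0326), and the 2 lower calls were lost after rescaling, while untreated high-collagen gels (log2 0.17) passed as higher (log2 0.36, adjusted p = 0.0459). The high-collagen call was also lost without TC IL-4 replicate 1 (adjusted p = 0.212). Before rescaling Tlr6 was called in untreated high-collagen gels alone (log2 0.32, adjusted p = 0.161). That call ended without TC untreated replicate 2 (adjusted p = 0.465), high-collagen untreated replicate 1 (adjusted p = 0.204) or replicate 2 (adjusted p = 0.395), while the value in untreated low-collagen gels (log2 0.25, adjusted p = 0.268) passed without low-collagen IL-4 replicate 1 (adjusted p = 0.19) or replicate 2 (adjusted p = 0.189). After rescaling Tlr6 was called as higher in low-collagen gels in untreated cells (log2 0.41) and with IL-4 (log2 0.30, from a value of 0.00 before).

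**Figure D3:**
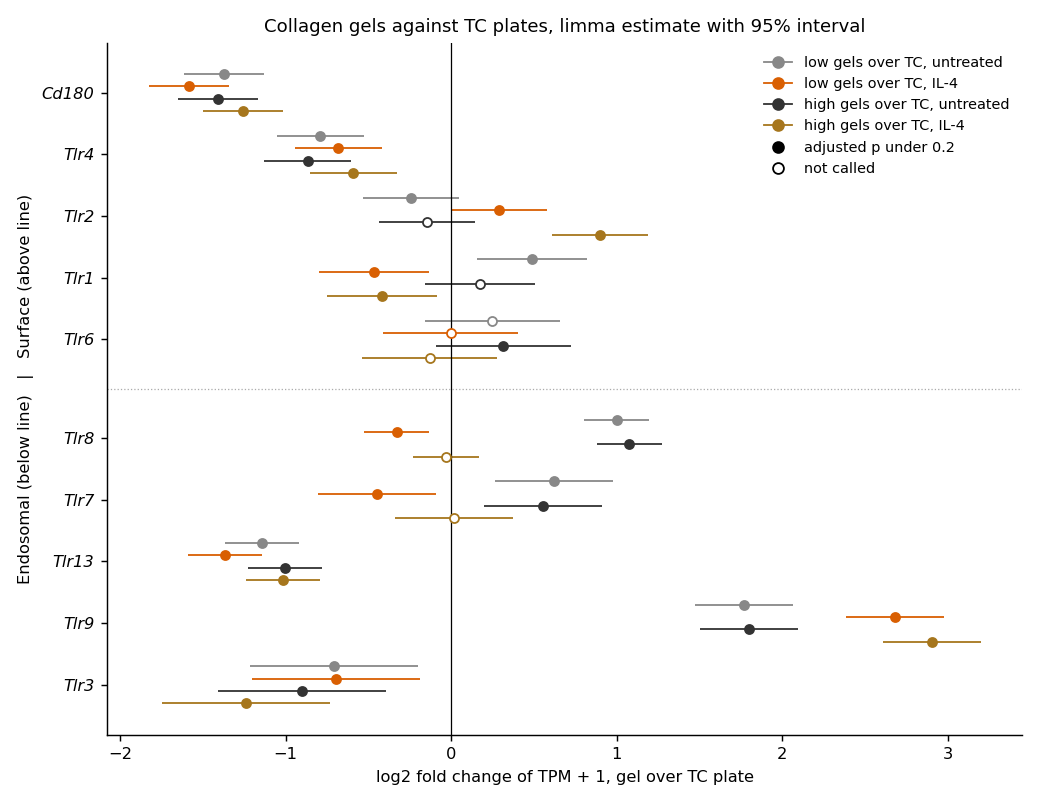
log2 fold change of TPM + 1 for gels over TC plates with the limma 95% interval, for low- and high-collagen gels in untreated and IL-4 cells, filled points marking an adjusted p under 0.2. Tlr9 lies between 1.77 and 2.91 in all 4 comparisons, Cd180, Tlr4, Tlr13 and Tlr3 lie below 0 in all 4, and Tlr8 and Tlr7 lie at 0.56 or above in untreated cells and between −0.45 and 0.02 with IL-4.

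The response to IL-4 was then compared between gels and plates with a contrast of the responses themselves. It differed for 5 of the 10 members between low-collagen gels and plates (28% of all genes called) and for 4 of the 10 between high-collagen gels and plates (17.3% of all genes called). For Tlr8 the rise on plates exceeded the change in both gels (difference of log2 fold changes −1.33 ± 0.12, adjusted p = 0.000247, and −1.11 ± 0.12, adjusted p = 0.000931). Tlr9 and Tlr2 fell less in gels than on plates, by a difference of 0.91 and 1.11 for Tlr9 (adjusted p = 0.0144 and 0.00707) and of 0.53 and 1.05 for Tlr2 (adjusted p = 0.102 and 0.00887). Tlr7 and Tlr1 fell more in low-collagen gels than on plates (differences of −1.07 and −0.96, adjusted p = 0.0161 and 0.019). These comparisons share the plate libraries, so the low- and high-collagen values are not independent. With 1 plate or gel library left out, Tlr2 at low density lost its call in 3 cases (adjusted p from 0.207 to 0.239), and the Tlr1 call at high density (log2 −0.59, adjusted p = 0.143) was lost in 5 cases (adjusted p from 0.224 to 0.344). Tlr7 at high density (log2 −0.54, adjusted p = 0.214) passed the threshold in 3 cases, without TC IL-4 replicate 1 (adjusted p = 0.0943), high-collagen untreated replicate 2 (adjusted p = 0.178) or high-collagen IL-4 replicate 1 (adjusted p = 0.165). Cd180 (log2 −0.22, adjusted p = 0.405) and Tlr13 (log2 −0.22, adjusted p = 0.353) at low density passed it without low-collagen untreated replicate 1 (adjusted p = 0.114 and 0.0613).

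The balance of surface and endosomal receptors was compared through the summed TPM of each set of 5 genes. On plates the endosomal receptors made up 46.1% and 46.1% of the summed TPM of the 10 members in untreated cells and 50.3% and 52.1% with IL-4. In gels they made up 61.3% and 59.9% at low density and 62.7% and 60.8% at high density in untreated cells, and 59.2% and 58.7% and 62.6% and 59.4% with IL-4. All 8 gel libraries were above all 4 plate libraries. These sums are given as a description, without a test.

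The sums show which side moved. From untreated plates to untreated low-collagen gels the surface sum went from 368 and 378 TPM to 194 and 238 TPM, while the endosomal sum was 314 and 323 TPM against 307 and 356 TPM and overlapped. Cd180 alone went from 217 and 225 TPM to 75.9 and 94.6 TPM. Without it the log2 ratio of endosomal to surface TPM was 1.06 and 1.08 on untreated plates and 1.31 to 1.43 in untreated gels, and with IL-4 the plates (1.21 and 1.31) lay above the low-collagen gels (1.19 and 1.19) and below the high-collagen gels (1.44 and 1.35). Within the endosomal set the sum hides opposite moves, since Tlr13 was lower and Tlr7, Tlr8 and Tlr9 were higher in untreated gels than on plates. With IL-4 both sums were lower in gels, at 147 and 135 TPM for the surface and 213 and 192 TPM for the endosomal receptors at low density, and at 163 and 163 TPM and 272 and 238 TPM at high density. Members of both classes fell with IL-4, and a difference between the classes was not tested: 4 of 5 endosomal and 3 of 5 surface members were called as lower in low-collagen gels, and 4 of 5 in each class in high-collagen gels, beside 40.4% and 22.8% of all genes. After rescaling 3 of 5 in each class were lower at low density, and 4 endosomal and 3 surface members at high density. Over all 11852 genes the rescaled numbers lower were 2497 and 1766.

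**Figure D4:**
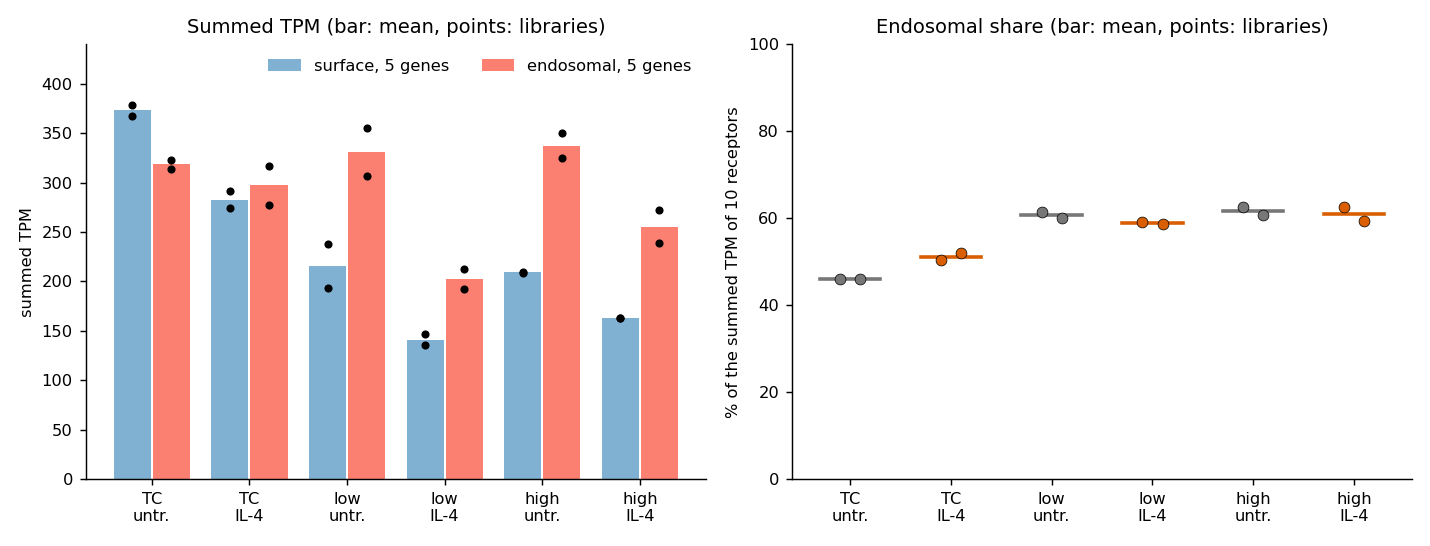
Left, summed TPM of the 5 surface and the 5 endosomal receptors (bars, mean of 2 libraries, and points, libraries). Right, endosomal share in percent of the summed TPM of the 10 receptors, gray for untreated and orange for IL-4, which lies between 46.1% and 52.1% on plates and between 58.7% and 62.7% in gels.

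Receptors act with partners. With IL-4 the partner Cd14 changed more than Tlr2 on plates (log2 −3.17 against −2.68) and less than Tlr2 in low-collagen gels (−1.81 against −2.15). Of the 8 partner genes, 2 were higher and 2 were lower with IL-4 in each gel, and 2 were higher and 3 were lower on plates. The share of all genes called was 53.6% in low-collagen gels, 34.3% in high-collagen gels and 38.8% on plates, so the list did not stand out at low density. Cd14, which hands lipopolysaccharide to TLR4, went from 729 and 724 TPM to 81.9 and 77.5 TPM on plates and from 367 and 349 TPM to 97.4 and 105 TPM in low-collagen gels (log2 −3.17 and −1.81, adjusted p = 7.6e-09 and 6.2e-06). Its libraries did not overlap. Cd14 thus fell where Tlr4 rose, while Ly96, the other part of that complex, was not called with IL-4 on any substrate. Cd14 was lower in untreated gels than on plates (log2 −1.02 and −0.73 at low and high density) and higher in gels with IL-4 (0.34 and 1.01).

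Cd36, a scavenger receptor and coreceptor of TLR2, rose from 559 and 560 TPM to 1754 and 1982 TPM on plates (log2 1.74, adjusted p = 6.7e-07) and from 95.2 and 115 TPM to 223 and 211 TPM in low-collagen gels (log2 1.04, adjusted p = 0.00015), and so moved against Tlr2. It was lower in gels than on plates in all 4 comparisons (log2 −1.89 to −3.10). Ly86, the partner of CD180, was at 130 and 135 TPM on untreated plates and at 486 and 478 TPM in low-collagen gels (log2 1.85), while Cd180 itself was lower there. Unc93b1, the escort of the endosomal receptors, was at 313 and 341 TPM on untreated plates and at 788 and 747 TPM in low-collagen gels (log2 1.23) and fell with IL-4 on every substrate (log2 −0.38, −0.45 and −0.40 in low-collagen gels, high-collagen gels and plates).

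Of the folding factors, Hsp90b1 rose with IL-4 on every substrate (log2 0.28, 0.25 and 0.32) and was lower in gels. Cnpy3 stayed between 84.6 and 102 TPM in all libraries. Lbp, the serum protein that binds lipopolysaccharide, was at 0.273 to 3.33 TPM and higher in gels (log2 1.13 for untreated low-collagen gels against plates). Between the densities with IL-4, Cd14 (log2 0.67), Cd36 (0.64) and Ly86 (0.32) were higher in high-collagen gels. Of the 8 partners, 3 were called as higher and 0 as lower (3 and 1 after rescaling), beside 14.1% and 6.99% of all genes. The median log2 fold change over the partners was −0.08, beside 0.06 over all genes, so the list as a whole was not higher. Leaving out single libraries was not tested for the partners.

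**Figure D5:**
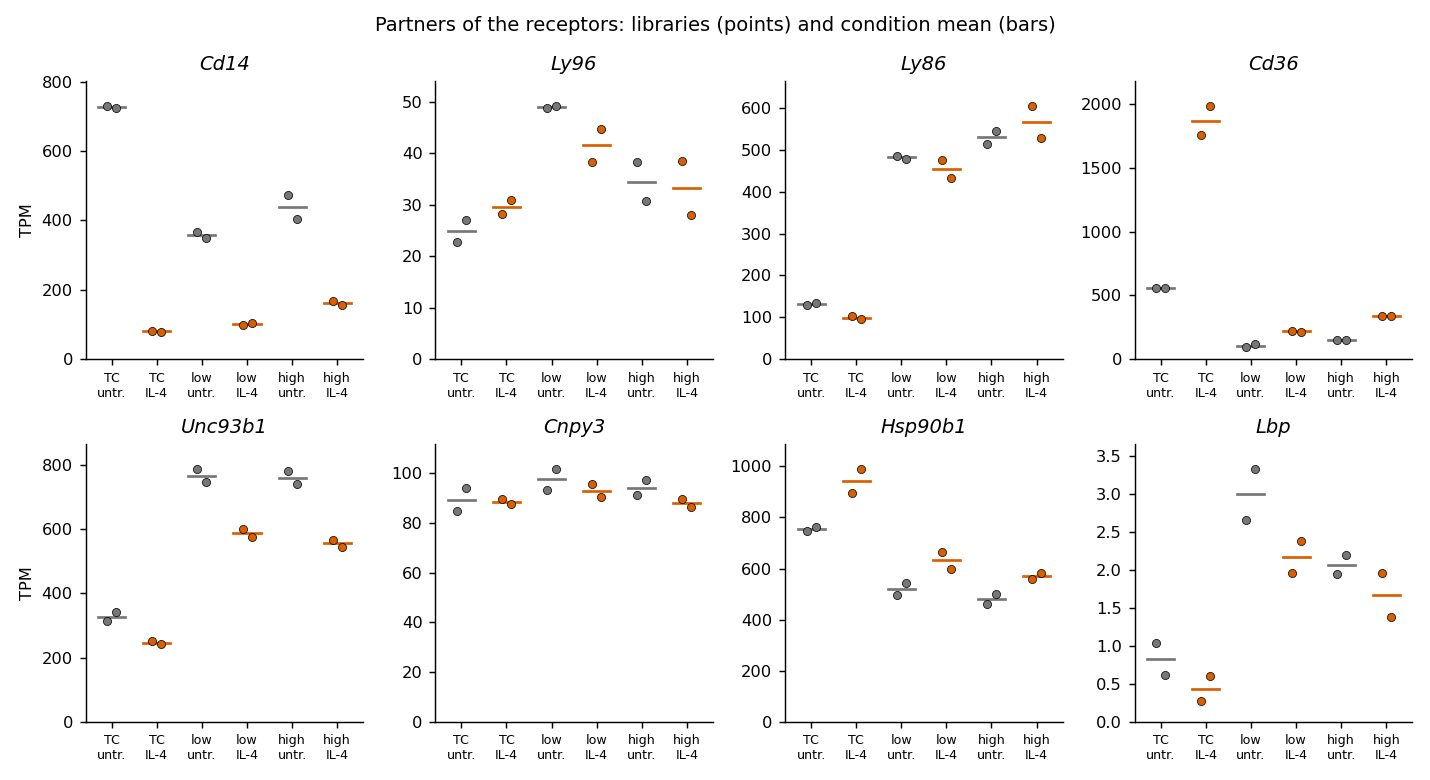
TPM of the 8 partner genes in every library (points) with the mean of each condition (bars), gray for untreated (untr.) and orange for IL-4. Cd14 is at most 166 TPM in every IL-4 library and at least 349 TPM in every untreated one, Cd36 is highest on plates with IL-4, and Ly86 and Unc93b1 are higher in every gel library than in every plate library.

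Lists of genes downstream of the receptors are read against all genes tested, of which IL-4 raised 13.2% and lowered 40.4% in low-collagen gels, 11.5% and 22.8% in high-collagen gels, and 14.7% and 24% on plates. Rescaled counts are read against the rescaled numbers higher and lower. These were 2791 and 2497 of 11852 in low-collagen gels, 1989 and 1766 in high-collagen gels, and 2236 and 2403 of 11865 on plates. Of 18 tested adaptors and kinases, 1 was higher and 11 were lower in low-collagen gels (7 lower after rescaling), 1 and 6 in high-collagen gels, and 0 and 6 on plates, with medians of −0.36, −0.20 and −0.14 beside −0.19, −0.10 and −0.06 over all genes. The largest falls were those of Ikbke, a kinase that activates interferon regulatory factors (log2 −1.01, adjusted p = 0.00514), Tab2 and Map3k7, which form the TAK1 complex (−0.99 and −0.82), and Irak2, a kinase of the MYD88 complex (−0.88), all in low-collagen gels. With IL-4, Irak2 (log2 0.56), Map3k7 (0.61) and Tab2 (0.37) were higher in high- than in low-collagen gels. These genes were named for their falls in low-collagen gels. Both comparisons use the low-collagen IL-4 libraries, so the choice of genes favors that direction. Of the 18, 5 were called as higher and 1 as lower in high-collagen gels with IL-4 (4 and 2 after rescaling). Of all genes 14.1% were higher and 6.99% lower (1218 and 1350 of 11852 after rescaling). Leaving out single libraries was not tested for these genes.

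The negative regulators did not move together. Of 13, 4 were higher and 6 were lower with IL-4 in low-collagen gels (6 and 4 after rescaling), and 5 were higher and 5 were lower on plates. Socs1, which restrains cytokine and TLR signaling, rose from 0.678 and 1.01 TPM to 183 and 175 TPM in low-collagen gels (log2 6.62) and from 0.816 and 1.17 TPM to 55.8 and 50.6 TPM on plates (log2 4.77). Zc3h12a, an RNase that degrades inflammatory messages, rose on both (log2 0.78 and 1.24), and Dusp1, a phosphatase of MAP kinases, fell on both (log2 −0.99 and −0.93). Tnip3, an inhibitor of NF-κB, rose in low-collagen gels from 12.5 and 10.7 TPM to 49.4 and 44.6 TPM (log2 1.93, adjusted p = 3.4e-05). On plates it fell from 47.7 and 51.4 TPM to 17.3 and 22.2 TPM (log2 −1.29, adjusted p = 0.000109). The difference of the responses was 3.23 (log2). Tnip3 was named for its large change in low-collagen gels, which enters that difference.

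Of the 11 transcription factors, 3 were higher and 6 were lower with IL-4 in low-collagen gels (3 and 2 after rescaling) and 2 were higher and 6 were lower on plates. Irf8, which is needed for many myeloid genes, fell in low-collagen gels from 186 and 168 TPM to 102 and 101 TPM (log2 −0.79). Irf7 and Relb fell on plates (log2 −1.82 and −1.10), and Rel rose there (0.59). Irf7 was not called in low-collagen gels, where its libraries were far apart, at 23.2 and 50.5 TPM untreated and 53.2 and 23.1 TPM with IL-4.

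For the endosomal receptors, genes of their traffic, processing and ligands were listed as well. Of 12 traffic genes, 3 were higher and 9 were lower with IL-4 in low-collagen gels (3 and 3 after rescaling), where 53.6% of all genes were called and 40.4% were lower. In high-collagen gels 2 were higher and 4 lower (2 and 3 after rescaling), beside 11.5% and 22.8% of all genes. On plates 1 was higher and 3 were lower (4 and 3 after rescaling), beside 14.7% and 24%. In low-collagen gels 2791 of 11852 genes were higher and 2497 were lower after rescaling. Rab7b, a GTPase that sends TLR4 and TLR9 to lysosomes, fell from 80.3 and 89.8 TPM to 42.7 and 36.8 TPM (log2 −1.08), and Slc15a4, a lysosomal transporter used by TLR7 and TLR9, and the kinase Syk fell by 0.59 and 0.57 on the log2 scale, while the related transporter Slc15a3 rose (0.49). Of 5 proteases that can trim the ectodomains, 3 rose and 1 fell in low-collagen gels and on plates (4 and 0 after rescaling on both), led by Ctsk (log2 1.63 in low-collagen gels) and Ctsl, which went from 955 and 924 TPM to 1933 and 1950.2 TPM on plates (log2 1.05). Ctss rose in low-collagen gels (log2 0.45), and Lgmn rose on plates (0.60) and was slightly lower in low-collagen gels (−0.13). Of 5 endolysosomal nucleases, which make or destroy the ligands of TLR7, TLR8, TLR9 and TLR13, 2 were higher and 2 were lower in low-collagen gels (3 and 2 after rescaling) and 1 was higher and 3 were lower on plates (2 and 3). Dnase2a rose in low-collagen gels (log2 0.55), and Pld4, Rnaset2a and Rnaset2b fell on plates (−0.73, −0.65 and −0.52).

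The genes most like each member over the 12 libraries were taken by Pearson correlation of log2(TPM + 1), among genes with a mean of at least 5 TPM. The 12 libraries are 6 pairs, so a high r mostly says that the condition means are alike, and it is given as a description. Tlr2 was closest to Marcksl1, Vasp and Lpcat2 (r = 0.993, 0.992 and 0.992), Tlr13 to Cttnbp2nl, Dapk1 and Pik3ap1 (0.995, 0.990 and 0.988), Cd180 to Rapgef5, Baz1b and Pcdhgc3 (0.995, 0.994 and 0.992) and Tlr9 to Tmem176b, Pdzk1ip1 and Trafd1 (0.992, 0.989 and 0.988). Tlr4 was closest to Adam9, Tes and Slc25a13 (0.977, 0.973 and 0.972), Tlr3 to Arhgap30, Nfkbid and Tor1aip1 (0.960, 0.957 and 0.945), Tlr7 to Mknk1, Epn1 and Tcf4 (0.957, 0.953 and 0.953), Tlr8 to Vrk3, N4bp1 and Tbc1d2b (0.952 each) and Tlr1 to Rnf216, Fam212a and Scamp5 (0.952, 0.947 and 0.930). Tlr6, whose level moved least, had the weakest likeness, with Stard3 at 0.854, Ms4a4c at 0.840 and Foxred1 at 0.840.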

How the data were processed

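RNA-seq libraries of BMDMs from 6 conditions (2 libraries each) were grouped by the sample labels. The authors prepared stranded mRNA libraries, sequenced paired ends, quantified mouse transcripts (Ensembl, GRCm38) with kallisto 0.46.1, and the authors deposited TPM for every gene and library. How transcripts were joined into genes is not given in the sources used here. TPM keep no depth, so no counting interval or count test was used. Of 34456 lines, 129 repeated a gene and were collapsed, leaving 34327 genes.

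Values were taken as log2(TPM + 1), and genes whose TPM averaged 1 or more were tested with limma 3.58.1 in R 4.3.3 (one mean per condition, mean-variance trend, Benjamini-Hochberg adjustment over all tested genes, called at an adjusted p under 0.2, after the threshold in the paper). The 8 gel libraries entered one fit (11852 genes) and all 12 another (11865 genes) for comparisons with plates. Standard errors are limma's. Fold values are ratios of mean TPM, and log2 fold changes on the TPM + 1 scale understate changes of low genes. A sum over members was compared without a test. On simulated data with 200 changed genes among 11852, the fit of IL-4 in low-collagen gels called 82% of 2-fold and 94% of 4-fold changes, with 20% and 16.1% of calls false.

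The members, the gene lists and the alternatives were chosen with earlier results of these data known. All members and all partner genes are named, and of each other list up to 4 genes with the largest called change with IL-4 in low-collagen gels or on plates, or between densities with IL-4. Gene positions and 31-base words come from GENCODE annotation of GRCm38 and are not from the Ensembl release the authors used. Plots were drawn in matplotlib 3.10.9 from tables made with pandas 2.3.3 and numpy 2.4.6 (python 3.11.15).

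The tests were repeated with median-ratio rescaling or quantile normalization, with 0.1 TPM added in place of 1, without a filter or with one at 5 TPM, without the trend, with a replicate block, with other libraries in the fit, with each library left out, at an adjusted p under 0.05, with a 2-fold change required too, and other forms of the ratio of endosomal to surface TPM, of which the one without Tlr13 was chosen after seeing the data.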

Additional observations from a re-analysis of the deposited data

Results flagged for a closer look

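The response to IL-4 differed between gels and plates for several members by a test of the difference itself (limma, difference of log2 fold changes, gel minus plate, adjusted p under 0.2). Between low-collagen gels and plates the difference was −0.96 for Tlr1, 0.53 for Tlr2, −1.07 for Tlr7, −1.33 for Tlr8 and 0.91 for Tlr9. Between high-collagen gels and plates it was −0.59 for Tlr1, 1.05 for Tlr2, −1.11 for Tlr8 and 1.11 for Tlr9. Of all genes tested, 28% were called in the comparison at low density and 17.3% in that at high density. The calls of Tlr2 at low density and of Tlr1 at high density were lost without some single libraries, as given above. For Tlr8 the untreated plates stood apart, at 49.5 and 47.5 TPM, while the other 10 libraries lay between 88.7 and 124 TPM. For Tlr9 the plates with IL-4 were close to 1 TPM, where the added 1 TPM narrows differences: with 0.1 TPM added in its place the differences were 1.45 and 1.66.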

How the results depend on the processing

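Over 23 alternatives and 120 pairs of a member and a comparison, 2480 values were set beside the main ones. Of these, 2314 kept their direction and their side of the threshold, or changed sign with neither value called (51). A call was lost by 135 and gained by 27, and 4 reversed. The stricter adjusted p and the required 2-fold change used the main estimates under another threshold. Leaving out a library outside a comparison left its estimate as it was. Many values therefore had to keep their direction. The reversed values were Tlr6 in low-collagen gels against plates with IL-4 (log2 0.30 after median-ratio rescaling and 0.35 after quantile normalization) and Tlr8 in high-collagen gels against plates with IL-4 (0.21 and 0.17).

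Shares of all genes called were not taken under the settings below, so these counts describe the members alone. Numbers of members called moved by over 1.5 times as follows. With a 2-fold change required as well, they were 3, 1 and 3 for IL-4 in low-collagen gels, high-collagen gels and plates, 0 for high against low collagen with IL-4, 4 and 3 for low-collagen gels against plates (untreated, with IL-4), 4 and 4 for high-collagen gels against plates, and 2 for the difference of the IL-4 response between low-collagen gels and plates. With an adjusted p under 0.05, 5 were called for IL-4 in high-collagen gels and 0 for high against low collagen with IL-4, and without a filter 3 for the latter. With each library left out, the counts ranged from 7 to 9, 6 to 9 and 6 to 7 for IL-4 in low-collagen gels, high-collagen gels and plates, from 0 to 1 and 0 to 6 for high against low collagen (untreated, with IL-4), and were 0 for the interaction. They ranged from 8 to 10 and 8 to 9 for low-collagen gels against plates, from 7 to 8 and 6 to 7 for high-collagen gels against plates, and from 4 to 6 and 3 to 5 for the IL-4 responses against plates. Replicate numbers did not pair the libraries (15 pairs of conditions, correlation of deviations −0.12 to 0.11). A replicate block gave 7 members called for IL-4 in low-collagen gels in place of 8, with Tlr3 lost, and changed no other call.

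The log2 ratio of endosomal to surface TPM changed with IL-4 by −0.10 in low-collagen gels, −0.04 in high-collagen gels and 0.30 on plates. As a mean of logs these were −0.0084 at low density and 0.17 on plates, without Cd180 −0.16 and 0.20, without Tlr4 0.25, 0.26 and 0.51, and without Tlr13 −0.00436, 0.0831 and 0.83. The gap of untreated gels to plates was 0.85 at low and 0.92 at high density, and was 0.64 and 0.69 as a mean of logs, 0.28 and 0.35 without Cd180 and 1.55 and 1.58 without Tlr13. With IL-4 the gap was 0.45 and 0.58, and was 0.43 at high density as a mean of logs, −0.072 and 0.13 without Cd180, 0.59 at low density without Tlr4, and 0.71 and 0.83 without Tlr13. With each library left out the IL-4 changes ranged from −0.14 to −0.061, −0.14 to 0.052 and 0.24 to 0.35, with 0.052 without high-collagen IL-4 replicate 2 and 0.014 without high-collagen untreated replicate 1, and the gaps from 0.81 to 0.89, 0.86 to 0.97, 0.40 to 0.50 and 0.48 to 0.67. The depth of the libraries is unknown.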
